A study of Mus musculus with 10 samples.

Results

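The potassium channel genes of the mouse brain were taken as the genes whose symbol in the GENCODE M21 annotation starts with Kcn and whose mean over all libraries was at least 1 CPM (counts-per-million, relative to all gene counts of a library). Of 55536 genes, 99 carried such a symbol and 79 of these reached the minimum, of which 62 encode pore-forming subunits, 12 accessory proteins and 5 noncoding transcripts. The study profiled 1-year-old mice by RNA-seq, with 1 cerebellum and 1 cerebral cortex library from each of 5 animals, and the 10 libraries held between 16088310 and 22975355 gene counts. The Snx14-KO mice carry, in both copies of Snx14, a 1-base frameshift deletion that was made with Cas9 and bred onto C57BL/6J, and Snx14 encodes an endoplasmic reticulum protein of the sorting nexin family with a role in lipid droplets. There were 2 KO mice (KO 1 and KO 2) and 3 control mice, of which controls 1 and 2 were heterozygous (Het) and control 3 was wild type (WT). Each mouse gave both tissues, and because the deletion is present in every cell from conception, these libraries cannot separate its effect in one brain region from effects elsewhere in the body.

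Potassium channels let potassium ions leave or enter the cell and so set the resting potential, shape the repolarization of the action potential and limit repetitive firing. Voltage-gated (Kv), calcium-activated (BK, SK), inward-rectifier (Kir) and K2P leak channels are built from pore-forming subunits, and accessory proteins such as KChIPs and Kv beta subunits bind to some of them and change their trafficking and gating. Cerebellar Purkinje cells (PCs), the output neurons of the cerebellar cortex, fire spontaneously at high rates and depend on fast Kv3 and large-conductance BK currents. The study describes PC degeneration in the cerebellum of Snx14-KO mice and detected no neuronal loss in their cerebral cortex. It did report changes in gene expression, synaptic markers and lipids in KO cortex.

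Snx14 itself was measured at 42.8, 39.9 and 73.2 CPM in cerebellum controls 1 to 3 and at 15.5 and 17.4 CPM in KO 1 and KO 2, and at 34.3, 34.9 and 50.8 and 14.8 and 16.1 CPM in the same mice's cortex. KO libraries were below every control in both tissues, with a log2 fold change of -1.66 (SE 0.256, adjusted p = 0.0140) in cerebellum and -1.36 (SE 0.193, adjusted p = 0.754) in cortex. The tissue labels went with their markers, since 12 granule cell markers summed to between 5084 and 6001 CPM in cerebellum and to between 319 and 374 CPM in cortex libraries. Xist was at or below 3.19 CPM in the libraries of control 2 and KO 2 and at or above 799.9 CPM in those of the other mice, so both groups mixed mice with and without Xist RNA. Fits that leave out control 2 or KO 2 therefore also remove the only mouse without Xist RNA from its group. The cortex library of control 2 stood apart from the other cortex controls: 13 striatal neuron markers summed to 2129, 4756 and 1932 CPM in controls 1 to 3, 10 oligodendrocyte markers to 4914, 9092 and 5007 CPM and 11 cortical excitatory neuron markers to 7096, 4539 and 6737 CPM.

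Because 4 members passed the test in KO cerebellum together, RefSeq promoter sequences (build GRCm38.p6, 250 bases before to 50 bases after a transcription start, 5′ to 3′) are shown for these, each at the start nearest to the start of the gene as it was counted. RefSeq lists 3 starts for Kcnip1, 2 for Kcnip4, 3 for Kcnab1 and 1 for Kcng4, and gene-level counts do not tell which start was used. Capitals mark matches, on either strand, to any of 3 motifs. The GC box was searched as GGGCGG. For the half-site of nuclear receptors the letters were AGGTCA. The TATA box was searched with the letters TATAAA.
Kcnip1 (chr11:33993144-33993443, minus strand): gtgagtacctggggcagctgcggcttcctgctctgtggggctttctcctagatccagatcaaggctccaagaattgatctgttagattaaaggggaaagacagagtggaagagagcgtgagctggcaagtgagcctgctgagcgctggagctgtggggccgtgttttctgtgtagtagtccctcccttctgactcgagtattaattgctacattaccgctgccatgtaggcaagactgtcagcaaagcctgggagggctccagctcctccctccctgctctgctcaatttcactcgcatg
Kcnip4 (chr5:49285610-49285909, minus strand): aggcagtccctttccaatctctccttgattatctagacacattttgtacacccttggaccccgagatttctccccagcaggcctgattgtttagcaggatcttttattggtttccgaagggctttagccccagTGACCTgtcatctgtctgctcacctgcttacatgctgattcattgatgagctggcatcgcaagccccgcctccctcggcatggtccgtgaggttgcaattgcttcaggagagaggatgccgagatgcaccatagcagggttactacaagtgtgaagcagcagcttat
Kcnab1 (chr3:65108764-65109063, plus strand): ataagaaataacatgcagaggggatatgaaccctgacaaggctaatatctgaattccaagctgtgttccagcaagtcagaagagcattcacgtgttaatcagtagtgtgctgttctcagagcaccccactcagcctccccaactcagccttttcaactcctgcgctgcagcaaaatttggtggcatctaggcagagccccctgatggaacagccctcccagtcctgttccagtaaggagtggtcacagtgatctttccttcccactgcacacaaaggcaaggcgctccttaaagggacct
Kcng4 (chr8:119635631-119635930, minus strand): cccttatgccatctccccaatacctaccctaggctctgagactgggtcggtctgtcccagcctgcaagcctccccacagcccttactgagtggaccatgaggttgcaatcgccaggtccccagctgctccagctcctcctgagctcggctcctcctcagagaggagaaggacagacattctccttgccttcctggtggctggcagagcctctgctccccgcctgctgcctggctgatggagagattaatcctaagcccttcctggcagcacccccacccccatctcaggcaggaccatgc
The only match in these windows was 1 AGGTCA, on the opposite strand of the Kcnip4 promoter. Windows at the other listed starts, not shown, held 1 GGGCGG for Kcnip1, 2 GGGCGG and 1 TATAAA for Kcnab1, and no match for Kcnip4. The start shown for Kcng4 lay at the counted gene's own start, that of Kcnip1 41 bases and that of Kcnab1 370 bases upstream of it, and that of Kcnip4 239248 bases downstream of it. GGGCGG was found in 35.7% of all 32851 RefSeq promoters of this length and in 38 of the 79 listed for potassium channel genes, of which 55 matched by symbol. AGGTCA was found in 16.3% of all promoters and in 5 of the 79, and TATAAA in 13.6% and in 4. The 4 windows differed in base composition, with a G and C content of 54.3% for Kcnip1, 51.0% for Kcnip4, 50.3% for Kcnab1 and 61.3% for Kcng4.

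In the cerebellum, the comparison of KO with control mice asked which channel genes differ in the region that degenerates. Kcnip1, Kcnip4, Kcnab1 and Kcng4 were lower in KO mice, and no member was called higher. Calls needed a p-value under 0.05 after Benjamini-Hochberg adjustment over all genes tested and a log2 fold change of over 0.5 in size. This rule called 4 of the 77 members tested, beside 1.55% of all 19447 genes tested (1.04% lower) and 1.71% of the genes with a mean of at least 1 CPM (1.17% lower). Of these 4 genes, 3 encode accessory proteins (3 of 12 tested) and 1 a pore-forming subunit (1 of 60 tested). In tissue RNA, fewer cells of a type and less RNA per cell cannot be told apart.

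Kcnip1 (ENSMUSG00000053519.15) encodes KChIP1, a calcium-binding accessory subunit of Kv4 channels, and lies on the minus strand at chr11:33629339-33993152 (GRCm38). Its level was 61.2, 62.7 and 59.7 CPM in cerebellum controls 1 to 3 and 24.5 and 25.7 CPM in KO 1 and KO 2. Both KO libraries were at well under the lowest control, and the KO mean was 41% of the control mean (log2 fold change -1.29, SE 0.0763, adjusted p = 0.000444). In cortex the same gene was at 22.5, 21.2 and 21.2 CPM in controls and 20.4 and 22.2 CPM in KO mice, and the groups overlapped. The KO cerebellum levels of Kcnip1 were thus close to those of cortex.

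Kcnip4, at chr5:48389502-49524907 on the minus strand, encodes KChIP4, another Kv4 partner, which has isoforms that slow channel inactivation. It was measured at 145, 146 and 139.8 CPM in cerebellum controls and at 104 and 93 CPM in KO mice, that is 68.4% of the control mean (log2 fold change -0.56, SE 0.0670, adjusted p = 0.00526). The groups did not overlap, and KO 2 was the lower of the KO mice. Without KO 2 the log2 fold change was -0.48 (adjusted p = 0.0414), short of the fold threshold. The other KChIP genes did not pass: Kcnip3 had a log2 fold change of 0.11 (adjusted p = 0.595) and Kcnip2, which was near 1.84 CPM in control cerebellum, one of 0.65 (adjusted p = 0.287). Their binding partners of the Kv4 family stayed close to the controls, with 281, 309 and 239.7 CPM of Kcnd2 in controls and 305 and 251 CPM in KO mice, and none of the 3 Kv4 genes passed the test (log2 fold changes between -0.11 and 0.06).

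Kcnab1, at chr3:65109384-65378223 on the plus strand, encodes Kv beta 1, a cytoplasmic subunit of Kv1 channels that can make them inactivate quickly. It stood at 162, 161 and 156 CPM in cerebellum controls and at 80.9 and 86 CPM in KO mice, or 52.3% of the control mean (log2 fold change -0.94, SE 0.0623, adjusted p = 0.000444). The 3 controls lay within a narrow band far above both KO libraries. The other Kv beta genes did not pass the test, with log2 fold changes of -0.07 for Kcnab2 (adjusted p = 0.826) and 0.25 for Kcnab3 (adjusted p = 0.179). Among the Kv1 pore genes, Kcna1 (log2 fold change 0.04) and Kcna2 (0.07) were near 0, while Kcna6 had 93.3, 83.3 and 88.9 CPM in controls and 58.8 and 70.2 CPM in KO mice. Kcna6 passed the adjusted p without reaching the fold threshold (log2 fold change -0.46, adjusted p = 0.0425), and 39.6% of its exonic bases are shared with the gene Gm26673, where reads cannot be told apart.

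Kcng4, at chr8:119623854-119635680 on the minus strand, encodes a silent Kv subunit that forms no channel alone and modifies Kv2 channels. It had 202, 186 and 215 CPM in cerebellum controls and 104 and 112 CPM in KO mice, 53.6% of the control mean (log2 fold change -0.91, SE 0.0788, adjusted p = 0.00107). The groups did not overlap. Kcnb2, a gene of the Kv2 family, had a log2 fold change of 0.25 and did not pass the test (adjusted p = 0.671). Kcnip1, Kcnab1 and Kcng4 stayed called when any 1 of the 5 cerebellum libraries was left out.

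**Figure D1:**
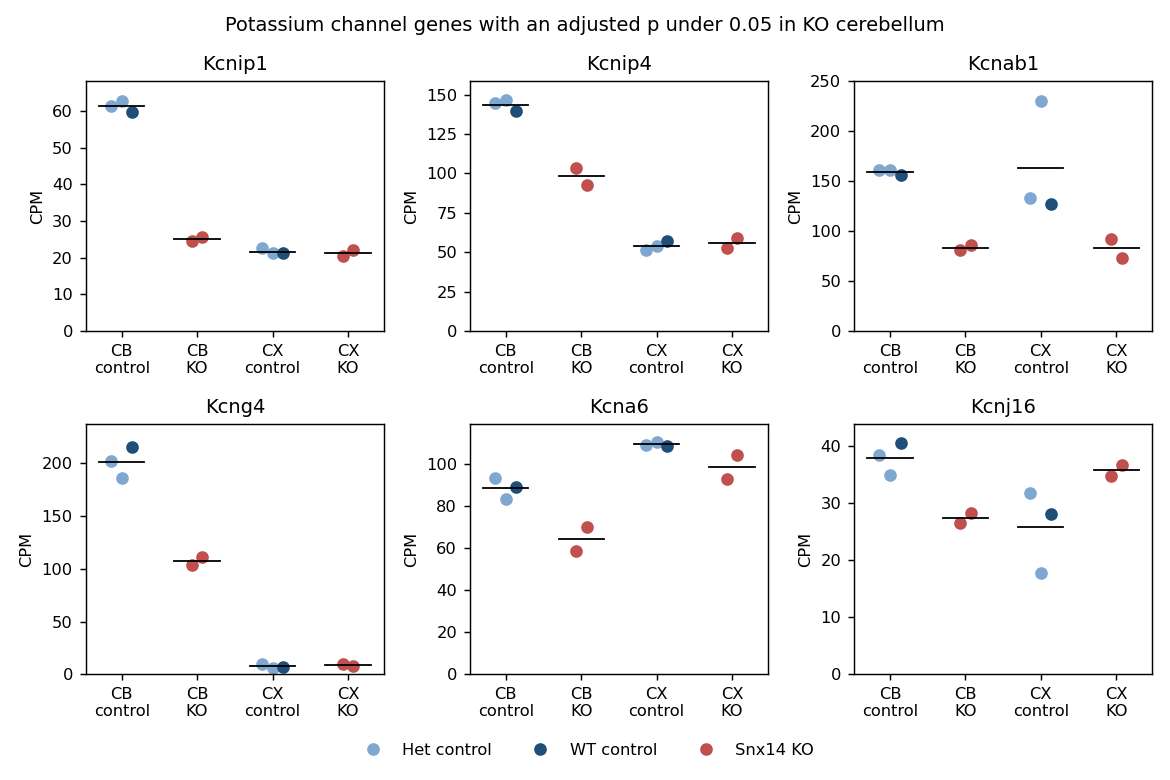
Level of the 6 potassium channel genes with an adjusted p under 0.05 in KO cerebellum, in CPM on linear axes, with 1 point for each library of cerebellum (CB) and cortex (CX), coloured by genotype, and a bar at each group's mean. For Kcnip1, Kcnip4, Kcnab1 and Kcng4 both KO cerebellum points lie below all 3 control points, and control 2 is the high cortex point of Kcnab1.

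Kcnj16, which encodes a Kir subunit that joins Kcnj10 in glia, was the other member that passed the adjusted p only. It was at 38.3, 34.9 and 40.6 CPM in cerebellum controls and 26.5 and 28.2 CPM in KO mice (log2 fold change -0.48, adjusted p = 0.0451), without overlap, and Kcnj10, the main astrocyte Kir gene, did not pass (log2 fold change -0.08, adjusted p = 0.864). With no fold threshold, 6 members were called, all lower, beside 1.41% of all genes called lower.

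Among the genes of the BK channel, which helps set the firing of PCs, none passed the test. Kcnma1, the BK pore gene, had 330.5, 244 and 315 CPM in cerebellum controls and 212 and 192 CPM in KO mice (log2 fold change -0.56, adjusted p = 0.0670), and Kcnmb4, the neuronal BK beta gene, a log2 fold change of -0.36 (adjusted p = 0.0647). Kcnmb2, another BK beta gene, had the opposite sign at 1.08 (adjusted p = 0.405). For Kcnma1 the KO libraries lay below all controls, and control 2 was the lowest control. Without control 2, 9 members were called, all lower, beside 1.47% of all genes called lower. These included the first 4, Kcna6 and Kcnj16, and Kcnma1 (log2 fold change -0.69, adjusted p = 0.00202) and Kcnh7 (-0.96, 0.0270), an EAG-family gene. With DESeq2, the tool of the study, 7 members were called in cerebellum, all lower, beside 1.56% of all genes with an adjusted p, and these included the first 4, Kcnma1 and Kcnh7. Kcnc1, which encodes a Kv3 subunit, stayed close to the controls, with 535, 531 and 489 CPM in controls and 533 and 498 CPM in KO mice (log2 fold change -0.02, adjusted p = 0.965).

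At the upper end, a few genes that are scarce in cerebellum had larger values in KO mice without passing the test. Kcnf1, a silent Kv gene, had 14, 10 and 17 counts in controls and 28 and 47 in KO mice (log2 fold change 1.40, adjusted p = 0.0984), and Kcnq5, a gene of the M-current family, had 24, 23 and 27 and 42 and 59 counts (log2 fold change 1.00, adjusted p = 0.108). For both genes each KO library was above each control. Kcnc2 had 102, 89 and 83 counts in controls and 100 and 275 in KO mice, so that its log2 fold change of 0.95 (adjusted p = 0.165) rested on KO 2, and without KO 1 it was called at 1.38 (adjusted p = 0.0227).

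Taking the 77 tested members as a group, 47 had a log2 fold change above 0 and 30 below 0, with a median of 0.05, beside a median of 0.00 over all genes tested. Without control 2, 38 of 77 were below 0, with a median of 0.00310. The KO and the control values were fully separate for 31 of them (17 higher and 14 lower, 40.3%), beside 30.0% of all genes. By subfamily, calls fell on 2 of 4 KChIP genes, 1 of 3 Kv beta genes and 1 of 6 tested silent Kv genes. No call was made among 6 Kv1, 2 Kv2, 4 Kv3, 3 Kv4, 4 Kv7, 7 EAG, 4 BK and Slo, 3 SK, 12 Kir, 9 K2P, 2 BK beta and 2 KCNE genes, the other protein-coding member and the 5 noncoding genes. Kcng1 and Kcnv1 were too low in cerebellum to be tested.

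**Figure D2:**
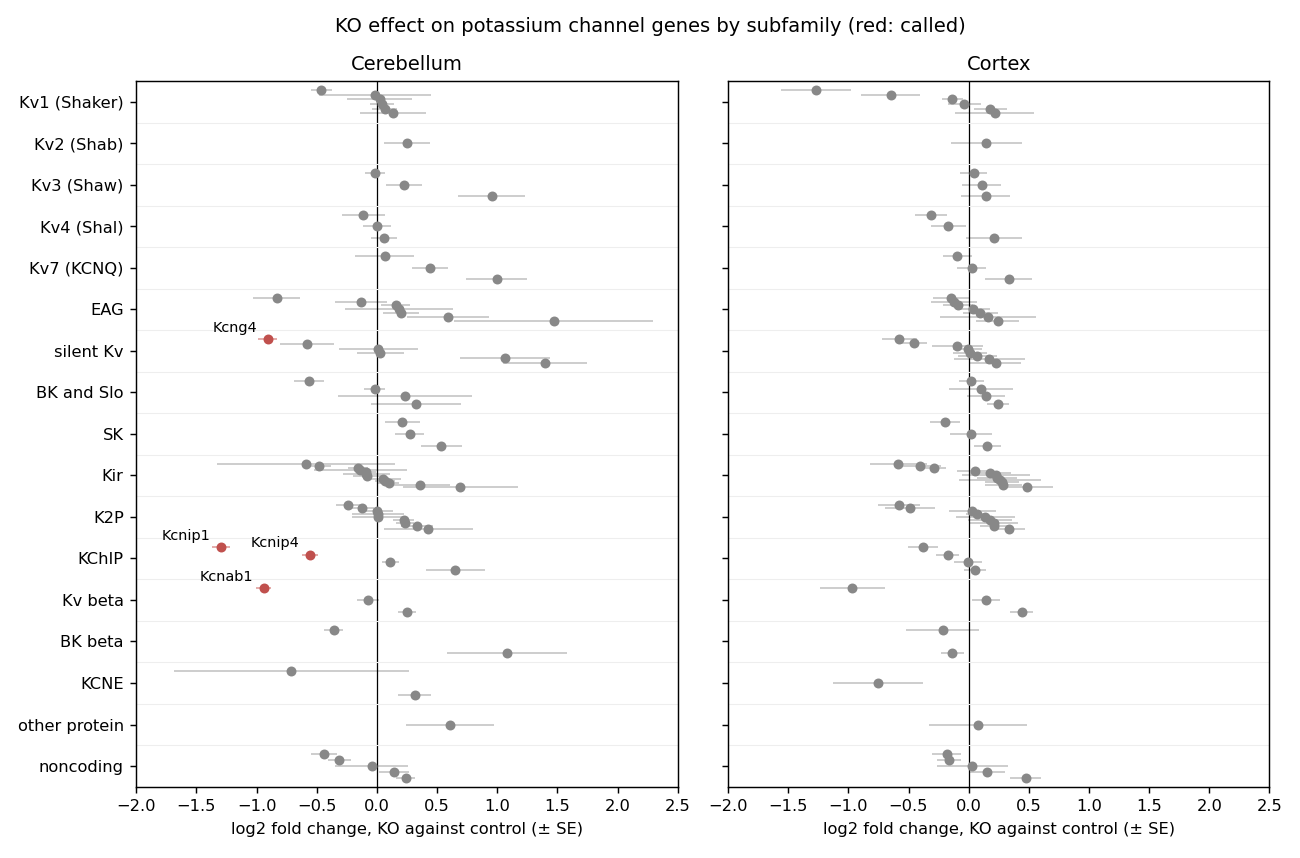
KO effect on the tested potassium channel genes, as the log2 fold change of KO against control mice (points) with its standard error (lines), in rows by subfamily, for cerebellum (left, 74 genes) and cortex (right, 74 genes). The 4 called genes, in red, all lie below 0 in cerebellum, between -1.29 and -0.56, and no gene is called in cortex.

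Cell type markers moved in the same libraries. The 20 PC markers, of which the study named some from these samples, summed to 13713, 11528 and 13460.4 CPM in cerebellum controls and 6271 and 6133 CPM in KO mice, with 17 of 20 called lower, none at 0 and a median log2 fold change of -1.02. The falls of Kcnip1, Kcnab1 and Kcng4 were of the size of that median, and that of Kcnip4 was smaller. Astrocyte markers summed to between 6512 and 7113 CPM in controls and to 8349 and 8045 CPM in KO mice (4 of 10 called higher), and microglia markers to between 207 and 236 and to 313 and 318 CPM (3 of 10 called higher). GABAergic interneuron markers were lower in KO mice, with 1912, 1882 and 2071 CPM in controls and 1721 and 1618 CPM in KO mice (1 of 7 called lower). Endothelial and mural cell markers were higher, with 221, 226 and 238 and 266 and 286 CPM (1 of 9 called higher). Granule cell markers overlapped between the groups, and 0 of 12 were called. The part of these cell types in the results for potassium channel genes was not tested.

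Kcne2 and Kcnj13, a KCNE accessory gene and a Kir gene that are both expressed in epithelia, varied widely within both groups. Their levels in cerebellum controls 1 to 3 were 25.3, 5.73 and 24.9 CPM for Kcne2 and 24, 5.96 and 20.7 CPM for Kcnj13, and in KO 1 and KO 2 0.439 and 21.8 and 2.47 and 19.6 CPM. Control 2 and KO 1 were low and the other 3 mice high, across genotypes. The 8 choroid plexus markers, of which none was at 0, summed to 4462, 1581 and 4979.8 CPM in controls and 217 and 4298 CPM in KO mice and were low in the same 2 libraries, and their part in these values was not tested. Of the exonic bases of Kcnj13, 49.1% lie in the gene Gigyf2, and the counts may hold reads of both. Neither gene was called (log2 fold change -0.71, adjusted p = 0.844 for Kcne2 and -0.59, adjusted p = 0.825 for Kcnj13).

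**Figure D3:**
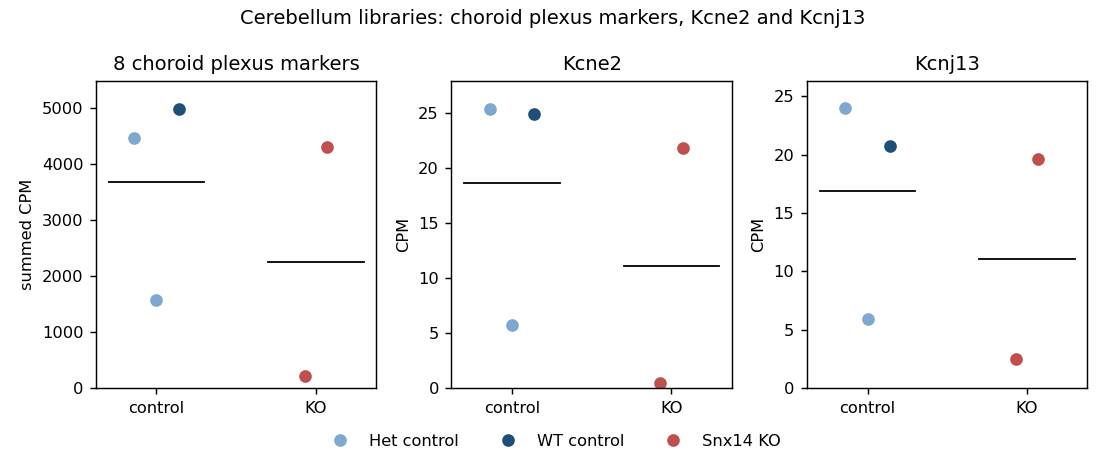
Summed level of 8 choroid plexus markers and levels of Kcne2 and Kcnj13 in the 5 cerebellum libraries, in CPM on linear axes, with 1 point per mouse coloured by genotype and a bar at the group mean. Control 2 and KO 1 are the low points in all 3 panels.

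In the cortex, which the study describes as free of neurodegeneration, edgeR called 0 of 77 tested members and 0 of all 19202 genes tested (0%). Snx14, the mutated gene itself, was not called either (log2 fold change -1.36, edgeR adjusted p = 0.754). The lack of calls in this fit therefore does not show a lack of change. The study itself, with DESeq2, reported differentially expressed genes in KO cortex at this age. At an unadjusted p under 0.05 there were 16 members, beside 5.93% of all genes, and DESeq2 called 2 members, both lower, beside 0.257% of all genes with an adjusted p. Members with a log2 fold change above 0 numbered 48 and those below 0 numbered 29, with a median of 0.05. The groups were fully separate for 29 members (10 higher and 19 lower, 37.7%), beside 24.7% of all genes.

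The members with an unadjusted p under 0.01 in cortex were Kcnab1, Kcna5, Kcng1, Kcns2, Kcnab3 and its antisense gene Kcnab3os, and each had an adjusted p of 0.754. Kcnab1 was at 133, 230.5 and 127 CPM in controls and 92.2 and 73.5 CPM in KO mice (log2 fold change -0.97, SE 0.267). Control 2 was far above the other controls, and both KO libraries were below all of them. Kcna5, a Kv1 gene, was at 7.07, 9.21 and 7.24 and 4.20 and 2.18 CPM (log2 fold change -1.27, SE 0.292). DESeq2 called Kcnab1 (adjusted p = 0.0332) and Kcna5 (adjusted p = 0.0426).

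The silent Kv genes Kcng1 and Kcns2 were lower in both KO mice. Kcng1 had 25.8, 21.1 and 26.7 CPM in controls and 15.4 and 17.1 CPM in KO mice (log2 fold change -0.58, SE 0.145), and Kcns2 40.1, 37.4 and 37.8 and 25.6 and 30 CPM (-0.46, SE 0.110). Kcnab3, the remaining Kv beta gene in this group, was at 69.3, 60.4 and 70.9 CPM in controls and 88.7 and 91 CPM in KO mice (log2 fold change 0.44, SE 0.0958), without overlap. Kcnab3os, which lies on the opposite strand and shares 26.0% of its exonic bases with Kcnab3, had a log2 fold change of 0.47 (SE 0.127), and reads in the shared bases cannot be told apart.

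Without control 2, 2 members were called in cortex, both lower, beside 0.411% of all genes called lower: Kcnab1 (log2 fold change -0.63, SE 0.0918, adjusted p = 0.00730) and Kcng1 (-0.68, SE 0.116, adjusted p = 0.0157). In that fit 51 of 77 members were below 0, with a median of -0.07, so the balance of directions turned on this library. The 13 striatal markers summed to 2129, 4756 and 1932 CPM in cortex controls and 1205 and 633 CPM in KO mice. All 13 had a log2 fold change below 0 (median -1.75), 0 were called and none was at 0. Kcnab1 was highest in control 2 and lowest in KO 2, as the striatal sum was, and the part of striatal RNA in these values was not tested.

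**Figure D4:**
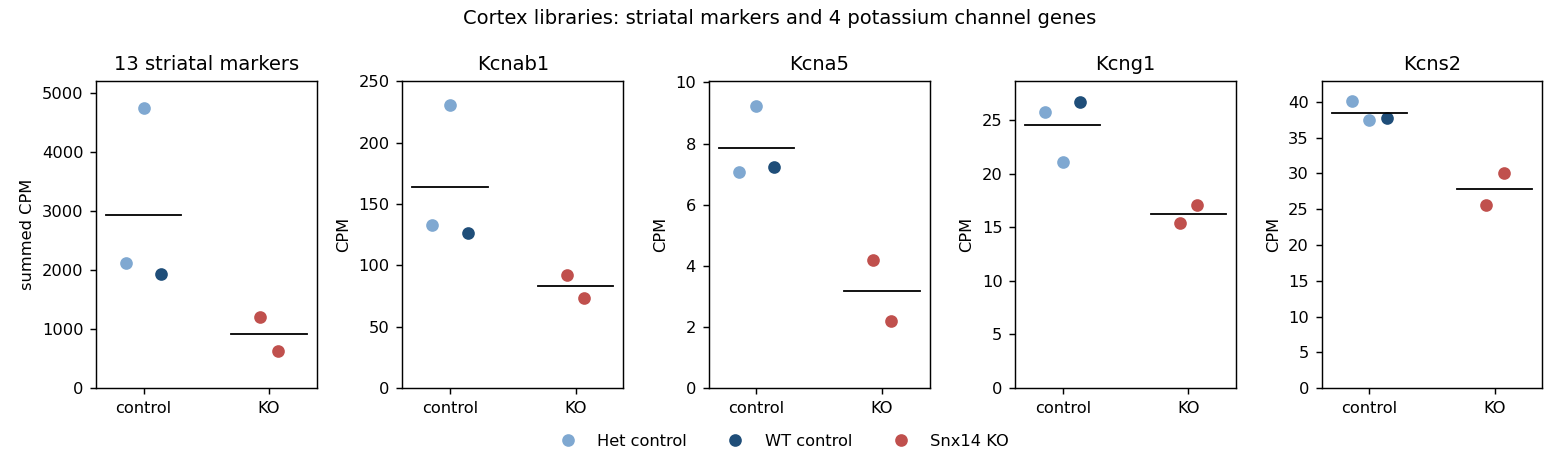
Summed level of 13 striatal neuron markers and levels of Kcnab1, Kcna5, Kcng1 and Kcns2 in the 5 cortex libraries, in CPM on linear axes, with 1 point per mouse coloured by genotype and a bar at the group mean. Control 2 is the highest point for the striatal markers, Kcnab1 and Kcna5, and the lowest control for Kcng1 and Kcns2.

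Whether the KO effects differed between the tissues was tested as the effect in cerebellum minus that in cortex, in 1 fit of all libraries. Kcnip1 was the only one of the 79 members called at an adjusted p under 0.05, beside 0.102% of all 20614 genes tested (0.0776% lower). Its difference was -1.26 on the log2 scale (SE 0.117, adjusted p = 0.00373), with an effect of -1.29 in cerebellum and -0.01 in cortex. The effects on Kcnab1 were -0.94 and -0.97, and their difference was 0.05 (SE 0.303, adjusted p = 0.993). Without cortex control 2 its cortex effect was -0.63 and the difference -0.31 (adjusted p = 0.405). For Kcng4 the difference was -1.12 (SE 0.205, adjusted p = 0.0953) and for Kcnip4 -0.59 (SE 0.114, adjusted p = 0.113).

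Since both tissues came from the same 5 mice, the difference was also fitted with the animal as a replicate block, and 7 members were then called, beside 0.621% of all genes. The KO effect was lower in cerebellum than in cortex for Kcnip1, with a difference of -1.27 (SE 0.120, adjusted p = 0.00154). The same held for Kcng4 at -1.12 (SE 0.178, adjusted p = 0.0212) and Kcnh7 at -1.07 (SE 0.167, adjusted p = 0.0212). Kcnj16 at -0.97 (SE 0.181, adjusted p = 0.0436) and Kcnma1 at -0.69 (SE 0.130, adjusted p = 0.0452) followed the same direction. Differences above 0, with the higher KO effect in cerebellum, were those of Kcnf1 at 1.42 (SE 0.234, adjusted p = 0.0239) and Kcnq5 at 0.99 (SE 0.185, adjusted p = 0.0424). Both genes were scarce in cerebellum.

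The effects on Kcnj16 had opposite signs in the tissues. It was lower in KO than in control cerebellum, as given above, while in cortex it was at 31.7, 17.7 and 28 CPM in controls and 34.8 and 36.6 CPM in KO mice (log2 fold change 0.48, adjusted p = 0.861), with control 2 the lowest cortex library. Without control 2 the cortex value was 0.27 (adjusted p = 0.331). Kcnh7 was at 17, 12 and 15.1 CPM in cerebellum controls and 7.02 and 9.47 CPM in KO mice (log2 fold change -0.83, adjusted p = 0.0810), and at 142, 106 and 173 and 161 and 168 CPM in cortex. Without cortex control 2 and without the block, 6 members were called: Kcnip1, Kcnip4, Kcng4, Kcnj16, Kcnf1 and Kcnq5. Over all genes tested, that fit called 117, beside 21 with all libraries and no block.

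Cerebellum and cortex of the control mice differed widely in their potassium channel genes. Of the 79 members 57 were called, 19 higher and 38 lower in cerebellum (72.2%), beside 40.5% of all 19416 genes tested (19.1% higher and 21.5% lower). Since membership rests on the mean over both tissues, a member low in one tissue had to be high in the other: 65 members reached 1 CPM in both tissues, 3 in cerebellum only and 11 in cortex only. Among the 65, 44 were called, 17 higher and 27 lower, beside 37.4% of genes at 1 CPM or more in both tissues (18.5% higher and 19.0% lower). CPM values below are means ± SD over the 3 controls.

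The silent Kv subunits, which only modify other Kv channels, were lower in cerebellum for 7 of 8 members, and only Kcng4 was higher. Over all cerebellum libraries, Kcnv1 and Kcng1 averaged 0.20 and 0.14 CPM and reached the minimum only through cortex. Their direction was thus largely set by the membership rule. Kcng4 was at 201 ± 14.5 CPM in cerebellum and 7.83 ± 1.74 CPM in cortex (log2 fold change 4.68 (SE 0.153, adjusted p = 8.54e-08)). Kcnv1 had 2, 2 and 3 counts in the 3 cerebellum controls and 2005, 1870 and 1779 in cortex, and was 961-fold lower (95% counting interval 466 to 2390.3) in cerebellum. By the same summed counts, Kcng1 was 190.4-fold lower (95% counting interval 96.4 to 442) and Kcnf1 181-fold lower (95% counting interval 133 to 252). Kcng1 had 5, 1 and 2 counts in the cerebellum controls, and its fitted log2 fold change of -7.52 became -8.27 without cerebellum control 1. The counting intervals cover counting error only, and the tissues did not overlap for these 4 genes, beside 61.8% of all genes tested. Per length, Kcng4 had the highest silent Kv level in cerebellum, 52.9 CPM per kb of exon, and Kcnf1 had it in cortex, at 25 CPM per kb.

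EAG-family genes, which encode slow voltage-gated channels of the Eag, Erg and Elk types, were lower in cerebellum for 6 of 7 members. Over all cerebellum libraries, Kcnh4, Kcnh5 and Kcnh6 averaged 0.52, 0.48 and 0.93 CPM and reached the minimum only through cortex. The direction of those genes was thus largely set by the membership rule. Kcnh3 was at 2.44 ± 0.0857 CPM in cerebellum and 175 ± 30.1 CPM in cortex (log2 fold change -6.17 (SE 0.166, adjusted p = 3.78e-08)). The exception was Kcnh2, an Erg gene, with 51.3 ± 6.93 CPM in cerebellum and 33.9 ± 4.05 CPM in cortex (0.59 (SE 0.127, adjusted p = 0.00412)), which also had the highest level of the family per length in cerebellum (10.6 CPM per kb). Kv7 genes, which carry the M current, were lower in cerebellum for 3 of 4 members. Kcnq5 was at 1.19 ± 0.164 and 101 ± 13.5 CPM (-6.41 (SE 0.160, adjusted p = 2.48e-08)). Kcnb2, which encodes a Kv2 delayed rectifier, was lower too, with 5.22 ± 0.972 and 25 ± 9.42 CPM (-2.25 (SE 0.297, adjusted p = 0.000254)).

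Among the Kv3 genes, whose channels let neurons fire fast, Kcnc1 was higher in cerebellum (log2 fold change 1.45 (SE 0.145, adjusted p = 4.92e-05)), Kcnc2 was lower (-4.59 (SE 0.118, adjusted p = 2.93e-08)), and Kcnc4 was not called (0.13 (SE 0.208, adjusted p = 0.640)). Of the Kv4 genes, Kcnd2 and Kcnd3 were higher and Kcnd1 lower in cerebellum, with Kcnd2 at 276 ± 34.7 and 127 ± 19.1 CPM (1.12 (SE 0.130, adjusted p = 0.000118)). Among 6 Kv1 genes 1 was higher and 2 lower. Kcna2, an axonal Kv1 gene with the highest level of its family per length in both tissues, was the higher one (0.72 (SE 0.133, adjusted p = 0.00184)).

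KChIP genes divided evenly, and each of the 4 was called. Kcnip1 (1.50 (SE 0.0768, adjusted p = 8.67e-07)) and Kcnip4 (1.40 (SE 0.0732, adjusted p = 9.65e-07)), the members that fell in KO cerebellum, were the KChIP genes higher in cerebellum. Kcnip2 was at 1.84 ± 0.321 CPM in cerebellum and 186 ± 25.1 CPM in cortex (-6.67 (SE 0.162, adjusted p = 2.2e-08)), and Kcnip3 was lower in cerebellum (-0.52 (SE 0.0840, adjusted p = 0.000862)). Of the Kv beta genes Kcnab2 was lower in cerebellum (-1.77 (SE 0.108, adjusted p = 2.48e-06)) and had the highest level per length of all members in cortex, 75.5 CPM per kb. Kcnab1 had overlapping levels in control cerebellum and cortex (-0.04 (SE 0.204, adjusted p = 0.883)). Of the 4 genes that fell in KO cerebellum, 3 were called higher in cerebellum than in cortex of controls, and Kcnab1 was not called. Among all 79 members 19 were called higher, and among all genes tested 19.1%. Both comparisons used the same cerebellum controls, so they are not independent.

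Inward rectifiers, which pass current more easily into the cell than out of it, gave 3 higher, 3 lower and 6 uncalled genes among 12. Kcnj12 was at 65.5 ± 5.25 CPM in cerebellum and 14.5 ± 2.30 CPM in cortex (2.17 (SE 0.128, adjusted p = 1.98e-06)). Kcnj4 had 13, 15 and 16 counts in cerebellum controls and 2614, 3208 and 2317 in cortex and was 220.0-fold lower (95% counting interval 164 to 303) in cerebellum. Kcnj10 had the highest Kir level per length in cerebellum (41.5 CPM per kb) and Kcnj4 in cortex (71.4 CPM per kb). Kcnj13 was 63.1-fold higher (95% counting interval 37.5 to 116) in cerebellum, and Kcne2 88.4-fold higher (95% counting interval 49.2 to 178), by summed control counts. Kcnj13 had 10, 2 and 2 counts in the cortex controls, and its fitted log2 fold change of 5.95 became 7.15 without cortex control 1. Choroid plexus markers summed to 4462, 1581 and 4979.8 CPM in cerebellum controls and 292, 298 and 256 CPM in cortex controls, and both genes were lowest in control 2 among the cerebellum controls, as that sum was. Kcne1l, the other KCNE member, was higher in cerebellum (1.81 (SE 0.266, adjusted p = 0.000498)).

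All 9 K2P genes, which encode leak channels, were called, 4 higher and 5 lower in cerebellum. Kcnk10 was at 39.4 ± 7.07 CPM in cerebellum and 6.70 ± 0.895 CPM in cortex (2.56 (SE 0.162, adjusted p = 3.06e-06)), and Kcnk3, an acid-sensitive leak channel gene, at 85.7 ± 5.81 and 29.5 ± 3.11 CPM (1.53 (SE 0.0996, adjusted p = 3.49e-06)). Kcnk1 had the highest K2P level per length in both tissues, 83.8 CPM per kb in cerebellum and 49.4 in cortex. Among BK and Slo genes, Kcnt2 was 62.6-fold lower (95% counting interval 44.8 to 90.1) in cerebellum and Kcnt1, the highest of them per length in both tissues, was higher (0.52 (SE 0.0907, adjusted p = 0.00134)), while Kcnma1 was not called (0.22 (SE 0.160, adjusted p = 0.287)). Of the SK genes, which are gated by calcium alone, Kcnn1 and Kcnn3 were lower in cerebellum and Kcnn2 was not called (0.17 (SE 0.112, adjusted p = 0.233)). For the BK beta genes, Kcnmb2 was lower (-2.55 (SE 0.398, adjusted p = 0.000682)) and Kcnmb4 passed the adjusted p below the fold threshold (-0.38 (SE 0.0752, adjusted p = 0.00273)). None of the 5 noncoding genes was called.

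**Figure D5:**
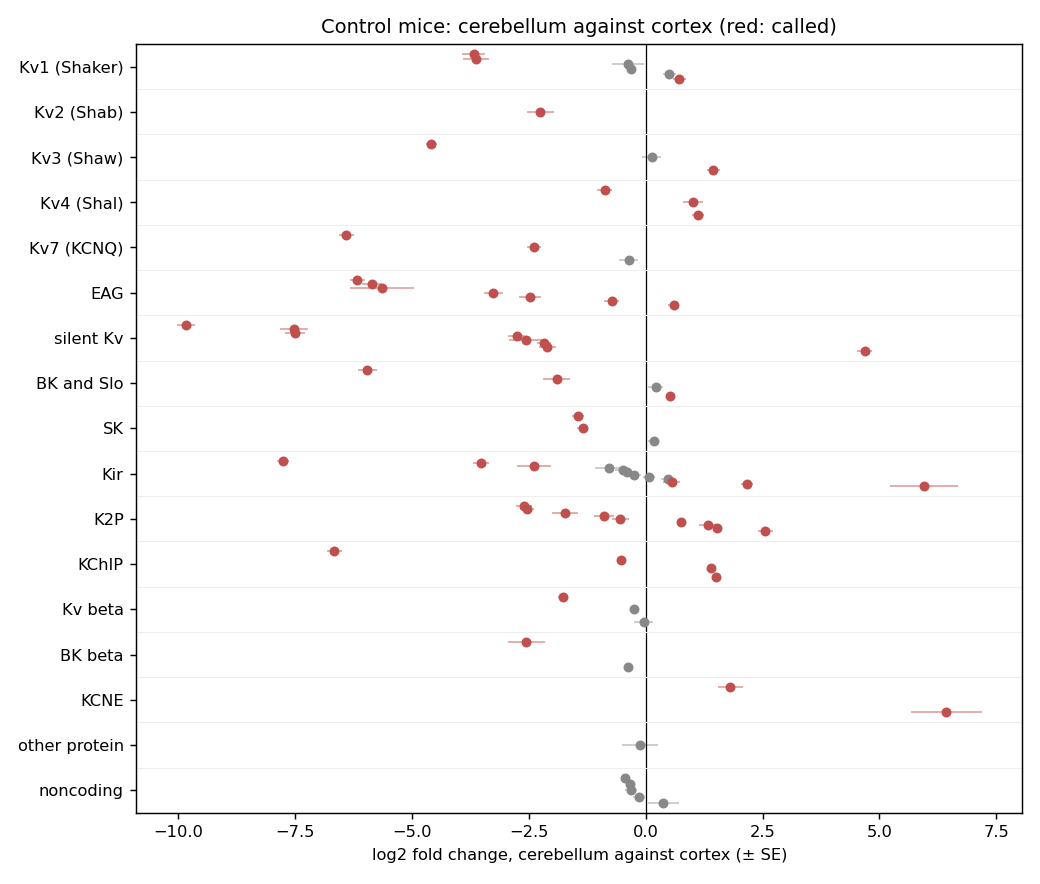
Difference between cerebellum and cortex of the 3 control mice for 76 potassium channel genes, as the log2 fold change of cerebellum against cortex (points) with its standard error (lines), in rows by subfamily. Called genes are red. The silent Kv, EAG and Kv7 genes lie mostly to the left and Kcne2 and Kcnj13 are the points farthest to the right at 6.43 and 5.95.

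Genes that work with these channels were examined from a list. Of 31 partner proteins of potassium channels, 30 were tested in KO cerebellum and 1 was called: Dlg2, which encodes the scaffold PSD-93, at 321, 267 and 326 CPM in controls and 223 and 193 CPM in KO mice (log2 fold change -0.56, SE 0.105, adjusted p = 0.0345). The groups did not overlap. The share called lower among all genes tested was 1.04%, as given above. In cortex and for the difference between tissues, edgeR called 0 of these genes, and in cortex 1 of 30 had an unadjusted p under 0.05, beside 5.93% of all genes. Their median log2 fold change in KO cerebellum was -0.01, beside 0.00 over all genes tested.

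The membership threshold lay between Kcnrg, a regulator gene with a mean of 1.06 CPM, and Kcne4, with 0.99 CPM. In all, 20 Kcn genes were below the minimum, none of them at 0 in every library, and 3 of these (Kcnk5, Kcne4 and Kcng3) reached 1 CPM in one tissue. No member shared more than 50% of its exonic bases with another gene, and 11 shared more than 10%. The antisense genes of Kcnmb4 are an example: Kcnmb4os1 and Kcnmb4os2, with log2 fold changes of -0.31 and -0.44 in KO cerebellum (adjusted p = 0.183 and 0.0984), overlap Kcnmb4 (-0.36), and the counts do not separate the strands.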

How the data were processed

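RNA was extracted with TRIzol from cerebellum and cortex of 5 mice (3 controls, 2 KO), and libraries were made by Genewiz per the labels. The authors aligned paired-end reads to GRCm38 with STAR and deposited raw counts of read pairs per gene from featureCounts (Subread 2.0.1), without strand and without multimapping reads, and a pair was counted for every gene it overlapped. DESeq2 1.38.3 is also named in the submitters' processing notes. Entries with no mouse gene identifier (0.160% to 0.926% of counts) were left out. Counts were fitted here over all genes with the quasi-likelihood test of edgeR 4.0.16 (R 4.3.3), with TMM scaling and filterByExpr (minimum count 10), and p-values were adjusted by Benjamini-Hochberg over all genes tested. CPM values are TMM-scaled over all 10 libraries. SE values are the size of the fitted log2 coefficient, without the prior count of the printed log2 fold changes, divided by the square root of F. The biological coefficient of variation was 0.121 in cerebellum and 0.141 in cortex. Library pairs within a group correlated at r between 0.983 and 0.996 over genes and differed by more than counting noise. The fit was also run on simulated data with 200 changed genes. The outcome is not reported here, so that run lends no weight to the calls.

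Alternatives were DESeq2 1.42.0, RLE scaling, no filter on low counts, leaving out each library, replicate blocks, other fold thresholds and a stricter membership rule. Deviations from the group means over 17431 genes correlated between tissues of the same animal at 0.246 to 0.486, and the animal numbers come from the labels. KO and control mice that share a number are different animals (-0.041 to 0.162). Members, lists and rules were chosen with earlier results of these data known. Named members are those called in KO mice or between effects, those with an unadjusted p under 0.01 in cortex, the 8 largest called tissue differences in each direction, the highest per length in each subfamily and those nearest the membership threshold. Other members were named after their values were seen. Some genes that these rules name are not reported here and were left out of the plots by subfamily, while counts of members include them.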

Additional observations from a re-analysis of the deposited data

Results flagged for a closer look

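Kcnip1 was marked because its KO effects differed between the tissues: the effect in cerebellum minus that in cortex was -1.26 on the log2 scale (SE 0.117, edgeR adjusted p = 0.00373), by a test of the difference itself. Both KO mice were below all controls in cerebellum and overlapped them in cortex. Over the fits that left out 1 library the difference ranged from -1.33 to -1.21, with adjusted p-values from 0.00112 to 0.0488.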

How the results depend on the processing

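The count of potassium channel genes called in KO cerebellum (4) was 7 with DESeq2, 13 with no filter on low counts (4 higher, among them Kcnf1 and Kcnq5, and 9 lower) and 4 to 9 when 1 library was left out (9 without control 2), and the 4 genes were among those called in each of these fits, except that Kcnip4 was lost without KO 2. In cortex (0) it was 2 with DESeq2, 6 with no filter, all lower, and 0 to 2 when 1 library was left out (2 without control 2). For the difference between tissues (1) it was 7 with DESeq2 (3 higher), 15 with no filter (8 higher), 7 with the animal as a replicate block and 1 to 6 when 1 library was left out (2 without cerebellum KO 1 and without cortex control 1, 6 without cortex control 2), and Kcnip1 was called in each. The tissue count (57) lay between 53 and 66 under the settings that kept all members and was 59 with the animal as a replicate block. With the mouse number as a block, 4 and 0 members were called in cerebellum and cortex. That block joins different animals and leaves control 3 without a KO mouse, so it is not a true pairing. Calls over all genes tested rose as well. In cerebellum they were 302 in the main fit, 427 with DESeq2, 842 with no filter and 400 without control 2. In cortex they were 0, 49, 380 and 98 in the same order. For the difference between tissues they were 21 in the main fit, 219 with DESeq2, 599 with no filter, 128 with the animal as a block and 117 without cortex control 2. Why the calls rose without the filter was not tested.

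Snx14 in cerebellum ranged from -1.82 to -1.33 when 1 library was left out and no longer passed without KO 1 (-1.57, adjusted p = 0.0989) or KO 2 (-1.76, adjusted p = 0.0638). In cortex it passed with DESeq2 (-1.36, adjusted p = 2.11e-06), with no filter (-1.36) and without control 2 (-1.45, adjusted p = 0.00207), over a range of -1.46 to -1.16. Kcnip1 in cortex, near 0 (-0.01), turned to 0.022 without control 1 and 0.042 without KO 1, over a range of -0.062 to 0.042. The cause of these changes was not tested. With 2 KO mice and a tissue mixture, changes in members near the count minimum or in rare cells may go undetected.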
